A study of Mus musculus with 12 samples.

Results

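The genes of respiratory complexes II and III and of ATP synthase (complex V) were followed in the muscle of Cox6a2-/- (KO) mice and wild type (WT) mice. The genes were chosen by name alone, as those with a symbol that begins with Sdh, Uqcr, Uqcc or Atp5 together with Cyc1, Bcs1l, Ttc19, Lyrm7, Atpif1, Atpaf1 and Atpaf2, which gave 43 of the 19938 genes measured. They comprised 30 subunits (4 of complex II, 9 of complex III and 17 of complex V), 12 assembly factors (4, 6 and 2 in the same order of complexes) and Atpif1, the inhibitor of ATP synthase. All 43 were tested, since no filter on low values was applied. The study hybridised total RNA of whole muscle to mouse Gene 1.0 ST arrays in 4 groups of 3 arrays each, which were KO diaphragm, WT diaphragm by label, KO gastrocnemius and WT gastrocnemius. All mice were C57Bl6 males of 10 to 12 weeks on a regular diet. The KO mice lacked Cox6a2, the heart and skeletal muscle isoform of a complex IV subunit, in the whole body, and the controls were matched C57BL/6J mice from a commercial colony that were not stated to be littermates. The labels call the 3 arrays of a group biological replicates. The p-values judge a difference against the spread between arrays within groups, which the main fit pools over all 4 groups.

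Complex II (succinate dehydrogenase) links the citric acid cycle to the respiratory chain by passing electrons from succinate to ubiquinone. Complex III passes them on from ubiquinol to cytochrome c and pumps protons across the inner mitochondrial membrane, and ATP synthase lets the protons flow back through a rotating ring of c subunits to make ATP. Assembly factors build the enzymes but are not part of the finished complex, and oxidative muscle such as the diaphragm holds more of all of these enzymes than a glycolytic hindlimb muscle.

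The values are log2 signals, and differences are given on the log2 scale with the SE, with p-values from limma adjusted over all 19938 genes and a call at an adjusted p under 0.05. Cox6a2 itself lay at 6.71 to 7.02 in KO diaphragm against 11.75 to 12.06 on the WT-labelled diaphragm arrays, and at 6.71 to 7.18 in KO gastrocnemius against 11.65 to 11.84 in WT gastrocnemius, so that the genotype labels held on all 12 arrays. The muscle label did not hold in the same way. Hoxc10, a position gene of the hindlimb, gave 3.82 to 4.53 in KO diaphragm, but 8.62 to 8.75 on the WT-labelled diaphragm arrays, 8.44 to 8.63 in KO gastrocnemius and 8.36 to 8.55 in WT gastrocnemius. Upk3b, a gene of the mesothelium that covers the diaphragm, gave 8.82 to 9.80 in KO diaphragm and 5.27 to 5.51 on the WT-labelled diaphragm arrays. Myh4, the myosin of fast glycolytic fibers, gave 8.74 to 9.15 in KO diaphragm and 13.50 to 13.60 on the WT-labelled diaphragm arrays. Over all genes these arrays correlated with WT gastrocnemius at r = 0.989 to 0.992 and with KO diaphragm at 0.963 to 0.975. The 3 arrays labelled WT diaphragm thus carried the position, covering and fiber genes of the gastrocnemius arrays, and in any difference that uses them genotype and muscle cannot be told apart. The difference between KO diaphragm and KO gastrocnemius, whose size does not use these arrays, is given after the comparisons of genotypes. Its SE and p-values still do, since the fit estimates 1 spread from all 12 arrays.

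Among the 43 genes, 28 were higher and 1 was lower in KO diaphragm than in the WT-labelled diaphragm. Of all genes tested, 16.3% were called higher and 11.2% lower in that comparison. The median difference of the 43 genes was 0.32 on the log2 scale, against -0.044 for all genes, and 36 of the 43 had a positive difference, as did 43.2% of all genes. The subunits rose nearly as a block, with 23 of 30 called higher, 0 called lower and a median of 0.38 (1.30-fold), while of the assembly factors 4 of 12 were called higher and 1 lower, with a median of 0.067. With array medians centred the counts over the 43 genes were 21 higher and 4 lower, and after quantile normalization 24 and 4. The shares of all genes called under these scalings are not given here. In gastrocnemius, KO against WT, 0 of the 43 genes were called in either direction by limma, where 0.406% of all genes were called higher and 0.186% lower. All the same, 41 of the 43 were higher on average in KO gastrocnemius, against 46.5% of all genes, 31 had all 3 KO arrays above all 3 WT arrays (12.3% of all genes did) against 1 with all below (11%), and 19 reached an unadjusted p under 0.05 in that direction (8.11% of all genes did) and 0 in the other (8.34%). The methods' t-test called 0 of the 43 genes in gastrocnemius after adjustment. Fewer cells of a type and less RNA per cell cannot be told apart in RNA of whole muscle.

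The per-array mean of the 30 subunits shows both patterns. It was 11.55, 11.41 and 11.57 in KO diaphragm against 11.22, 10.93 and 11.23 on the WT-labelled diaphragm arrays, and 11.29, 11.29 and 11.28 in KO gastrocnemius against 11.09, 11.08 and 11.11 in WT gastrocnemius. In both comparisons every KO array lay above every WT array. The gastrocnemius groups were tight, with an SD of 0.0085 in KO and 0.017 in WT, whereas the SD was 0.090 in KO diaphragm and 0.17 on the WT-labelled diaphragm arrays. In the last of these groups replicate 2 was the lowest of its group for 39 of the 43 genes, among them 29 of the 30 subunits. Without this array, 20 of the 43 genes were called higher and 2 lower in the diaphragm comparison. The mean of the 12 assembly factors was 7.97, 7.76 and 8.0 in KO diaphragm against 7.93, 7.65 and 7.85 on the WT-labelled diaphragm arrays, so that these groups overlapped. It was 7.98, 7.96 and 7.98 in KO gastrocnemius against 7.69, 7.68 and 7.74 in WT gastrocnemius, with no overlap. The assembly factor means of KO gastrocnemius thus lay within the range of KO diaphragm, and the subunit means lay below it. Some assembly factors were dim. Sdhaf3, Sdhaf4 and Lyrm7 had means over all arrays of 6.44, 6.29 and 5.30, below the 6.71 to 7.18 of the deleted Cox6a2 in KO muscle. The part of low signal in the difference between the classes was not tested.

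**Figure D1:**
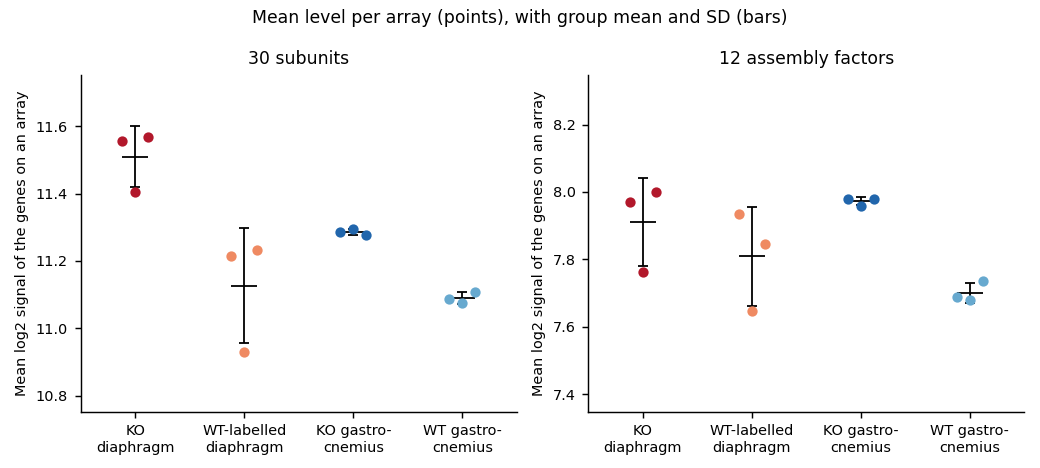
Mean log2 signal of the 30 subunits (left) and of the 12 assembly factors (right) on each array (points), with the mean and SD of each group of 3 arrays (bars); both y axes span the same range. The subunits are highest in KO diaphragm (11.41 to 11.57), whereas the assembly factors of KO diaphragm (7.76 to 8.0) overlap those of KO gastrocnemius (7.96 to 7.98).

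**Figure D2:**
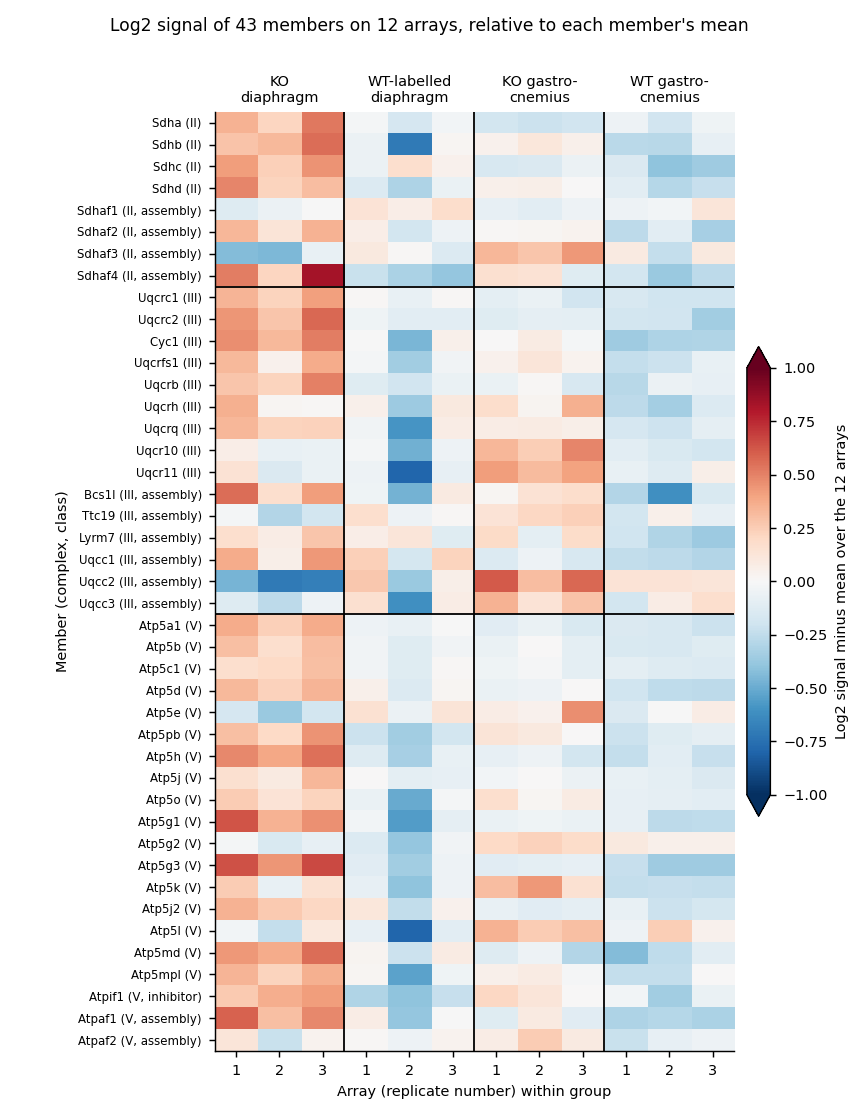
Log2 signal of each of the 43 genes (rows, with the complex and the class) on each of the 12 arrays (columns, by group and replicate), relative to the mean of that gene over all arrays; red is above and blue below the mean. Most subunits are red in KO diaphragm, Uqcc2, Sdhaf3 and Atp5e are blue there, and replicate 2 of the WT-labelled diaphragm arrays is the lowest of its group in 39 rows.

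All 4 subunits of complex II were called higher in KO diaphragm than in the WT-labelled diaphragm. Sdha, the flavoprotein that oxidizes succinate, gave 12.34, 12.20 and 12.52 in KO diaphragm against 11.97, 11.82 and 11.97 on the WT-labelled diaphragm arrays, a difference of 0.43 ± 0.10 (adjusted p = 0.00353). In gastrocnemius it gave 11.81, 11.78 and 11.80 in KO and 11.94, 11.80 and 11.95 in WT, a difference of -0.10 ± 0.10 (adjusted p = 0.614) with overlapping arrays. The 2 changes differed by 0.54 ± 0.13 (interaction, adjusted p = 0.0146), and Sdha was the one subunit of the 30 with a negative value in gastrocnemius. The iron-sulfur subunit Sdhb and the membrane anchors Sdhc and Sdhd differed by 0.64, 0.32 and 0.51 in the diaphragm comparison, all called, and by 0.28, 0.18 and 0.24 in gastrocnemius, none called. The call of Sdhc was lost in 7 of 21 other settings, at adjusted p-values up to 0.11.

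The 4 assembly factors of complex II did not move as 1 group. Sdhaf4, a chaperone of SDHA, had the largest difference of the 43 genes in the diaphragm comparison, with 6.8, 6.51 and 7.12 in KO diaphragm against 6.07, 5.97 and 5.90 on the WT-labelled diaphragm arrays (0.83 ± 0.13, adjusted p = 0.000351), and its groups did not overlap. In gastrocnemius it gave 6.45, 6.43 and 6.17 in KO against 6.11, 5.92 and 6.03 in WT (0.33, adjusted p = 0.239), again without overlap. A second and dimmer probe set of Sdhaf4 went the other way, by -0.35 in the diaphragm comparison (adjusted p = 0.0542 among single probe sets) and by -0.19 in gastrocnemius (adjusted p = 0.481), so the positive values rest on 1 of its 2 probe sets. The brighter one was itself dim, with a mean of 6.29 over all arrays. The deleted Cox6a2 gave 6.71 to 7.18 in KO muscle. Sdhaf2, which helps attach flavin to SDHA, gave 8.67, 8.47 and 8.69 in KO diaphragm against 8.41, 8.15 and 8.29 on the WT-labelled diaphragm arrays, and the difference of 0.32 ± 0.10 was called (adjusted p = 0.0237), but not in 7 of 21 other settings. Its values were 8.35, 8.36 and 8.38 in KO gastrocnemius and 8.08, 8.24 and 8.01 in WT gastrocnemius, where the difference of 0.25 was not (adjusted p = 0.219).

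Sdhaf3, which takes part in the maturation of the iron-sulfur subunit, had a negative value in the diaphragm comparison and a positive one in gastrocnemius. It gave 6.01, 5.99 and 6.37 in KO diaphragm against 6.54, 6.45 and 6.30 on the WT-labelled diaphragm arrays (-0.31 ± 0.12, adjusted p = 0.0765) and 6.78, 6.72 and 6.88 in KO gastrocnemius against 6.53, 6.20 and 6.54 in WT gastrocnemius (0.37 ± 0.12, adjusted p = 0.169). Neither difference was called, but the contrast between them was, at -0.68 ± 0.17 (adjusted p = 0.0163). In gastrocnemius all 3 KO arrays lay above the WT arrays, whereas 1 KO diaphragm array fell within the range of the WT-labelled diaphragm arrays. Sdhaf1, which assists the insertion of iron-sulfur clusters into SDHB, had a negative value in both comparisons (-0.19 and -0.093) and was called in neither.

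In complex III, 6 of 9 subunits were called higher in KO diaphragm than in the WT-labelled diaphragm. They were the core proteins Uqcrc1 and Uqcrc2, the electron carriers Cyc1 and Uqcrfs1 (cytochrome c1 and the Rieske iron-sulfur protein) and the small subunits Uqcrb and Uqcrq. Cyc1 had the largest difference of the complex, with 12.00, 11.87 and 12.06 in KO diaphragm against 11.54, 11.09 and 11.59 on the WT-labelled diaphragm arrays (0.57 ± 0.12, adjusted p = 0.00234). Its gastrocnemius values, 11.54, 11.63 and 11.52 in KO against 11.19, 11.24 and 11.24 in WT, were also apart, with a difference of 0.34 ± 0.12 that was not called (adjusted p = 0.178).

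The subunits of complex III stood in another order in gastrocnemius. Uqcrc1, which was called higher in the diaphragm comparison, had the smallest difference of the complex there. Its values were 12.32, 12.20 and 12.39 in KO diaphragm against 11.99, 11.90 and 11.99 on the WT-labelled diaphragm arrays (0.34 ± 0.083, adjusted p = 0.00717), and 11.88, 11.91 and 11.78 in KO gastrocnemius against 11.82, 11.78 and 11.77 in WT gastrocnemius (0.065 ± 0.083, adjusted p = 0.73). The largest difference in gastrocnemius belonged to Uqcr10, a small subunit, with 10.03, 9.94 and 10.19 in KO gastrocnemius against 9.59, 9.54 and 9.51 in WT gastrocnemius (0.51 ± 0.12, adjusted p = 0.0683). Each KO gastrocnemius array was above each WT gastrocnemius array, and the gene lay next to the threshold, since it was called without the WT-labelled diaphragm arrays (adjusted p = 0.0436). In the diaphragm comparison Uqcr10 gave 9.76, 9.62 and 9.62 in KO diaphragm against 9.67, 9.21 and 9.64 on the WT-labelled diaphragm arrays, which overlapped (0.16, adjusted p = 0.347). The hinge protein gene Uqcrh and the small subunit gene Uqcr11 had the same order of values, with 0.20 and 0.29 in the diaphragm comparison and 0.43 and 0.43 in gastrocnemius, none of them called. The interaction was not called for any of the 9 subunits of complex III.

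The assembly factors of complex III held the only gene of the 43 that was called lower in the diaphragm comparison. Uqcc2, which is needed for the synthesis of cytochrome b, gave 7.29, 7.05 and 7.08 in KO diaphragm against 8.03, 7.39 and 7.82 on the WT-labelled diaphragm arrays (-0.60 ± 0.14, 0.658-fold, adjusted p = 0.00478). In gastrocnemius the difference had the other sign, with 8.38, 8.07 and 8.34 in KO against 7.90, 7.90 and 7.88 in WT (0.37 ± 0.14, adjusted p = 0.21). There was no overlap in either comparison, and the 2 changes differed by -0.97 ± 0.20 (adjusted p = 0.0038), the largest interaction of the 43 genes. A second probe set of Uqcc2 also fell in the diaphragm comparison (-0.58) but was at 0.020 in gastrocnemius, and its interaction of -0.60 was called as well (adjusted p = 0.018 among single probe sets).

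Ttc19, which clears fragments of the Rieske protein from complex III, resembled Sdhaf3. It gave 8.19, 7.92 and 8.02 in KO diaphragm against 8.38, 8.16 and 8.23 on the WT-labelled diaphragm arrays (-0.21 ± 0.10, adjusted p = 0.135) and 8.35, 8.41 and 8.45 in KO gastrocnemius against 8.03, 8.26 and 8.12 in WT gastrocnemius (0.27 ± 0.10, adjusted p = 0.204). The first pair of groups overlapped and the second did not, and the interaction of -0.48 ± 0.14 was called (adjusted p = 0.0337). It was lost in 9 of 19 other settings, at adjusted p-values up to 0.0885. Bcs1l, which moves the Rieske protein into the complex, rose instead, with 8.76, 8.37 and 8.62 in KO diaphragm against 8.16, 7.73 and 8.30 on the WT-labelled diaphragm arrays (0.52 ± 0.15, adjusted p = 0.0194). Its change in gastrocnemius was of like size, with 8.22, 8.34 and 8.38 in KO against 7.91, 7.59 and 8.05 in WT (0.46 ± 0.15, adjusted p = 0.16). Uqcc1, a partner of UQCC2, gave 10.43, 10.11 and 10.49 in KO diaphragm, 10.30, 9.88 and 10.28 on the WT-labelled diaphragm arrays, 9.92, 10.01 and 9.90 in KO gastrocnemius and 9.81, 9.80 and 9.77 in WT gastrocnemius. Neither of its differences between genotypes was called (0.19 and 0.15), and the same held for Lyrm7, a chaperone of the Rieske protein (0.15 and 0.38), and for Uqcc3, an early factor of cytochrome b assembly (-0.02 and 0.24).

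Of the 17 ATP synthase subunits, 13 were called higher in KO diaphragm than in the WT-labelled diaphragm and 0 lower. In the F1 head, which holds the catalytic sites, the genes of the alpha, beta, gamma and delta subunits (Atp5a1, Atp5b, Atp5c1 and Atp5d) rose by 0.27 to 0.37 and all 4 were called. The fifth of them, Atp5e, which encodes the epsilon subunit at the foot of the rotor, was the exception. It gave 9.90, 9.69 and 9.88 in KO diaphragm against 10.22, 10.01 and 10.20 on the WT-labelled diaphragm arrays (-0.32 ± 0.12, adjusted p = 0.063), with every KO diaphragm array below the WT-labelled diaphragm arrays. In gastrocnemius the values of 10.14, 10.11 and 10.53 in KO and 9.93, 10.06 and 10.14 in WT overlapped (0.22 ± 0.12, adjusted p = 0.374). Its interaction of -0.53 ± 0.17 was called narrowly (adjusted p = 0.0467) and was lost in 11 of 19 other settings, at adjusted p-values up to 0.114.

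The 4 genes of the peripheral stalk, the stator that holds the F1 head still, were all called higher in the diaphragm comparison, by 0.25 (Atp5j) to 0.65 (Atp5h). The call of Atp5j was lost in 14 of 21 other settings, at adjusted p-values up to 0.311. Atp5h, the gene of subunit d, gave 12.14, 12.05 and 12.21 in KO diaphragm against 11.53, 11.33 and 11.58 on the WT-labelled diaphragm arrays (0.65 ± 0.093, adjusted p = 0.000114). Its values in gastrocnemius, 11.58, 11.61 and 11.48 in KO and 11.43, 11.55 and 11.43 in WT, overlapped (0.085 ± 0.093, adjusted p = 0.677). The interaction was 0.57 ± 0.13 (adjusted p = 0.00873), was called for each of the 3 probe sets of the gene and remained called in all 19 other settings.

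The c subunit, of which a ring forms the rotor in the membrane, is encoded by 3 genes, Atp5g1, Atp5g2 and Atp5g3, that give the same mature protein behind different import signals. Of the 3 genes, 2 were called higher in the diaphragm comparison and 1 was not called. Atp5g3 gave 12.54, 12.35 and 12.57 in KO diaphragm against 11.79, 11.56 and 11.85 on the WT-labelled diaphragm arrays, the largest difference of the complex (0.75 ± 0.10, 1.68-fold, adjusted p = 5.58e-05). Atp5g1 gave 11.85, 11.56 and 11.67 in KO diaphragm against 11.18, 10.66 and 11.13 on the WT-labelled diaphragm arrays (0.70 ± 0.13, 1.63-fold, adjusted p = 0.000824). For both genes the lowest KO diaphragm array lay above the highest array labelled WT diaphragm. Atp5g2 gave 11.38, 11.26 and 11.33 in KO diaphragm against 11.27, 11.02 and 11.37 on the WT-labelled diaphragm arrays, which overlapped (0.10 ± 0.094, 95% interval -0.10 to 0.30, adjusted p = 0.449).

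In gastrocnemius the 3 c subunit genes were close together. Atp5g3 gave 11.79, 11.80 and 11.82 in KO against 11.68, 11.55 and 11.55 in WT (0.21 ± 0.10, adjusted p = 0.296). Atp5g1 gave 11.15, 11.17 and 11.15 in KO against 11.13, 10.95 and 10.96 in WT (0.14 ± 0.13, adjusted p = 0.607). Atp5g2 gave 11.61, 11.63 and 11.59 in KO against 11.50, 11.46 and 11.45 in WT (0.14 ± 0.094, adjusted p = 0.485). In each of the 3 genes the KO gastrocnemius arrays all lay above the WT gastrocnemius arrays by a small margin. The interaction was called for Atp5g3 at 0.54 ± 0.14 (adjusted p = 0.0166) and for Atp5g1 at 0.56 ± 0.18 (adjusted p = 0.0489), but not for Atp5g2 at -0.036 ± 0.13 (adjusted p = 0.901). That of Atp5g1 was lost in 13 of 19 other settings and for the second of its 2 probe sets (adjusted p = 0.0729), whereas the 3 probe sets of Atp5g2 all stayed between 0.062 and 0.11 in the diaphragm comparison. Whether the change of Atp5g2 differs from those of Atp5g1 and Atp5g3 was not tested.

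Among the genes of the membrane subunits, Atp5j2 (subunit f), Atp5md (DAPIT) and Atp5mpl (a small proteolipid) were called higher in the diaphragm comparison, and Atp5k (subunit e) and Atp5l (subunit g) were not. Atp5k had the largest difference of the 43 genes in gastrocnemius, with 10.29, 10.41 and 10.13 in KO against 9.75, 9.75 and 9.74 in WT (0.53 ± 0.12, 1.45-fold, adjusted p = 0.0597). The 3 KO arrays all lay above the 3 WT arrays, and the gene was called in 4 of 22 other settings. In the diaphragm comparison it gave 10.24, 9.90 and 10.14 in KO diaphragm against 9.90, 9.58 and 9.93 on the WT-labelled diaphragm arrays, with overlap (0.29 ± 0.12, adjusted p = 0.0796). Atp5j2 had the smallest gastrocnemius difference of the complex, with 11.38, 11.33 and 11.36 in KO and 11.38, 11.24 and 11.28 in WT (0.058 ± 0.10, adjusted p = 0.808). In the diaphragm comparison its values of 11.80, 11.72 and 11.66 in KO diaphragm lay above the 11.57, 11.21 and 11.50 of the WT-labelled diaphragm arrays (0.30 ± 0.10, adjusted p = 0.0354), a call that was lost in 8 of 21 other settings, at adjusted p-values up to 0.175. Atp5l, which 6 probe sets measured, was called by none of them in the diaphragm comparison (0.24 to 0.32) or in gastrocnemius (0.18 to 0.24).

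Atpif1, whose protein stops ATP synthase from running backwards and splitting ATP, was called higher in the diaphragm comparison. It gave 9.0, 9.11 and 9.16 in KO diaphragm against 8.45, 8.34 and 8.52 on the WT-labelled diaphragm arrays (0.66 ± 0.10, 1.58-fold, adjusted p = 0.000268) and 8.95, 8.87 and 8.75 in KO gastrocnemius against 8.72, 8.40 and 8.68 in WT gastrocnemius (0.26 ± 0.10, adjusted p = 0.237). The groups were apart in both comparisons. Between KO diaphragm and KO gastrocnemius the difference was 0.24 ± 0.10 and not called (adjusted p = 0.104). Of the 2 chaperones of the F1 head, Atpaf1, which serves the beta subunit, gave 9.76, 9.47 and 9.65 in KO diaphragm against 9.24, 8.78 and 9.16 on the WT-labelled diaphragm arrays (0.56 ± 0.12, adjusted p = 0.00292). It gave 9.05, 9.26 and 9.06 in KO gastrocnemius against 8.86, 8.88 and 8.85 in WT gastrocnemius (0.26, adjusted p = 0.305), and neither pair of groups overlapped. Atpaf2, which serves the alpha subunit, differed by -0.019 and 0.26, and was called in neither.

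**Figure D3:**
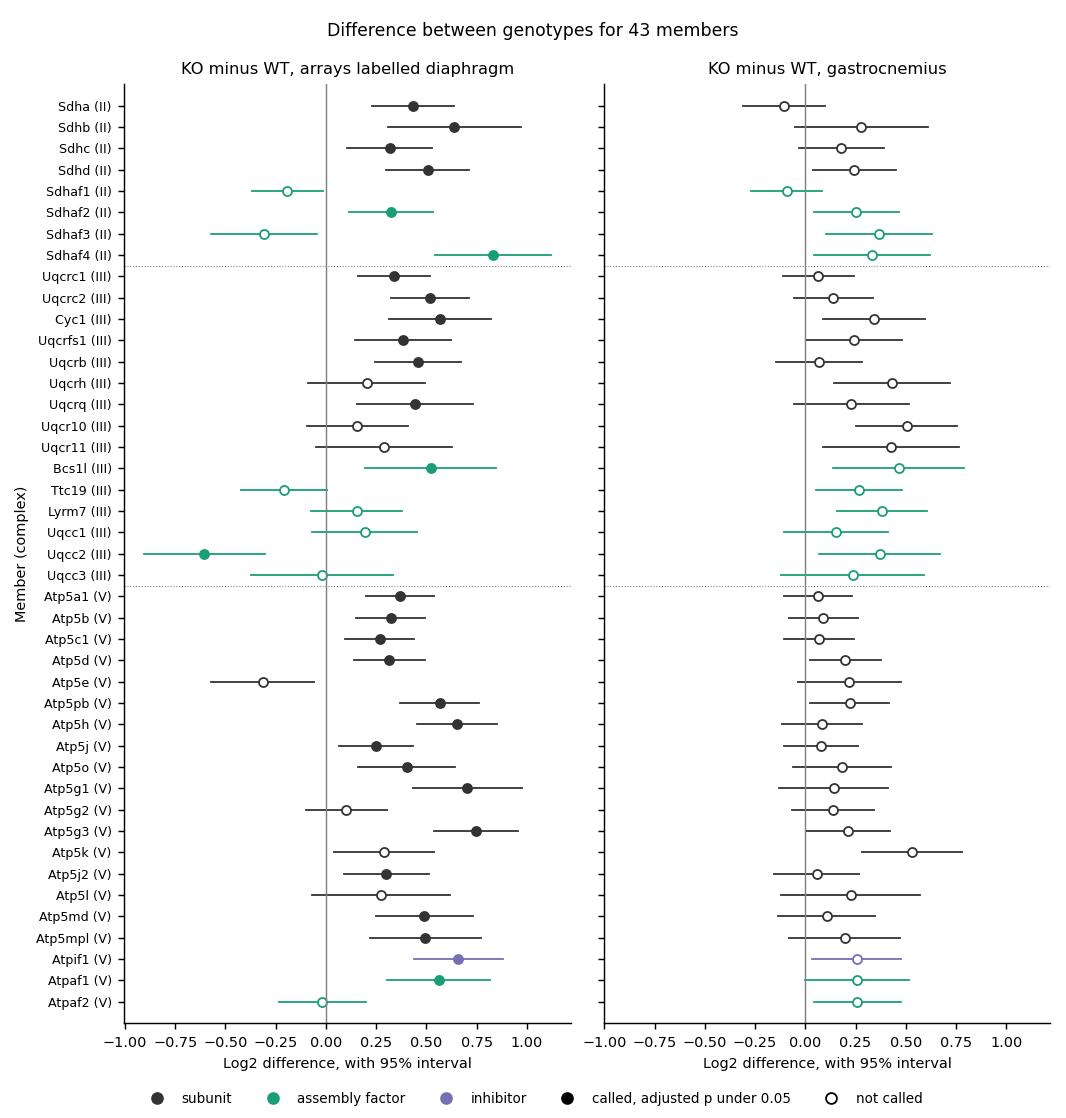
Log2 difference between KO and WT for each of the 43 genes, on the arrays labelled diaphragm (left) and in gastrocnemius (right), with the 95% interval as a line and the complex in brackets; filled points are called at an adjusted p under 0.05, and colours mark subunits, assembly factors and the inhibitor. On the left 28 filled points lie above 0 and 1 (Uqcc2) below it, whereas on the right 41 of the 43 open points lie above 0.

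The interaction, which asks whether the change in the diaphragm comparison exceeds that in gastrocnemius, was called higher for 4 of the 43 genes and lower for 4. Of all genes, 8.76% were called higher and 6.07% lower, so that the share of the 43 genes was near the background in both directions. The 4 higher genes, Sdha, Atp5h, Atp5g1 and Atp5g3, were all subunits, and of the 4 lower genes Sdhaf3, Ttc19 and Uqcc2 were assembly factors and Atp5e a subunit. Over the classes, 24 of 30 subunits but 5 of 12 assembly factors had a positive interaction, against 49.7% of all genes, and the medians were 0.23 and -0.16, beside -0.002 for all genes. The 6 subunits with a negative interaction were Uqcrh, Uqcr10, Uqcr11, Atp5e, Atp5g2 and Atp5k. When each array was centred on its own median, which moves this contrast by 0.13 for every gene, Atp5h alone was called higher while the same 4 genes were called lower. After quantile normalization 6 genes were called higher and 3 lower.

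**Figure D4:**
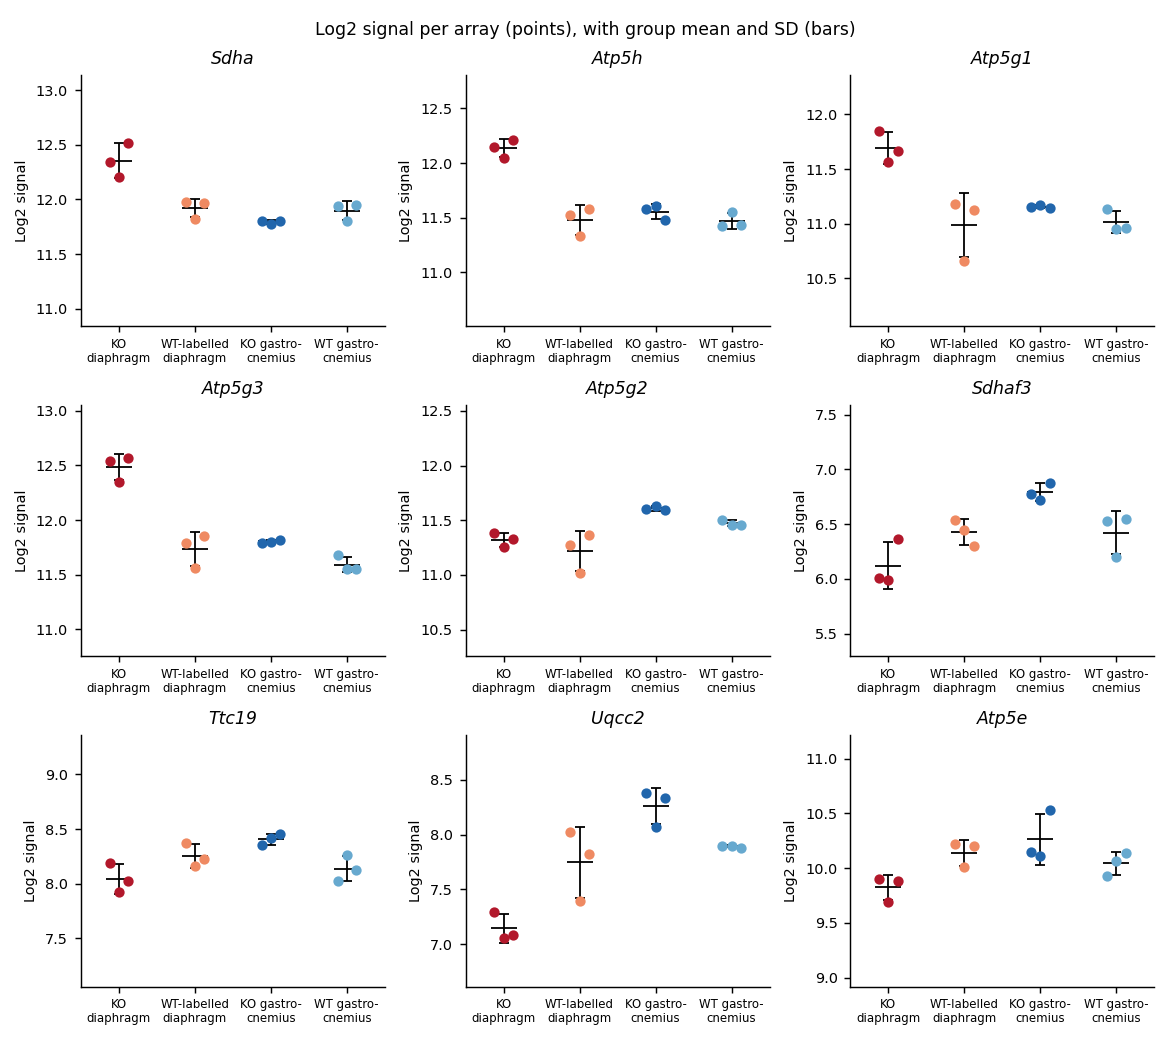
Log2 signal of the 8 genes with a called interaction and of Atp5g2 on each array (points), with the mean and SD of each group of 3 arrays (bars); each y axis spans the same range around the mean of its gene. Sdha, Atp5h, Atp5g1 and Atp5g3 stand highest in KO diaphragm, and Sdhaf3, Ttc19, Uqcc2 and Atp5e stand lowest there.

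The comparison of KO diaphragm with KO gastrocnemius, in which both groups lack Cox6a2 and both carry the position genes of their label, called 19 of the 43 genes higher and 6 lower. Of all genes, 17.7% were higher and 11.2% lower. The median of the 43 genes was 0.27, against 0.016 for all genes. Of the 30 subunits 16 were higher and 3 lower (median 0.31), and of the 12 assembly factors 3 were higher and 3 lower (median 0.047). When the fit left out the WT-labelled diaphragm arrays the counts were 20 higher and 9 lower. It shares the KO diaphragm arrays with the diaphragm comparison. With array medians centred, which moves this contrast by 0.13 for every gene, 10 genes were called higher and 9 lower, so the balance between the directions depends on the scaling. The shares of all genes called in these other fits are not given here.

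The muscle difference within KO was widest for Uqcc2, at -1.12 ± 0.14 (0.46-fold, adjusted p = 3.37e-05), with all KO diaphragm arrays below all KO gastrocnemius arrays. Sdhaf3 (-0.67, adjusted p = 0.000842), Ttc19 (-0.36, adjusted p = 0.0132) and the subunit genes Atp5e (-0.44, adjusted p = 0.0125), Uqcr10 (-0.38, adjusted p = 0.0232) and Atp5g2 (-0.29, adjusted p = 0.0336) were also lower in KO diaphragm. The highest were Atp5g3 (0.68, adjusted p = 0.000116), Atp5md (0.61, adjusted p = 0.000855), Atp5h (0.58, adjusted p = 0.000295) and Sdha (0.56, adjusted p = 0.000478). The c subunit genes were therefore called in opposite directions between the muscles of KO mice, with Atp5g1 (0.54, adjusted p = 0.00536) and Atp5g3 higher and Atp5g2 lower in diaphragm. Atp5g2 kept its direction, and Atp5g1 and Atp5g3 theirs, when array medians were centred. The call of Atp5g2 was lost in 5 of 21 other settings, at adjusted p-values up to 0.111, whereas those of Atp5g1 and Atp5g3 were lost in 0. Of the genes called higher in the diaphragm comparison, 10 were not called between the KO muscles. They were Sdhb (0.32), Sdhaf2 (0.25), Uqcrfs1 (0.18), Uqcrq (0.19), Bcs1l (0.27), Atp5mpl (0.27), Atpif1 and the other 3 genes of the peripheral stalk, Atp5pb (0.24), Atp5j (0.22) and Atp5o (0.11), all with positive values. The difference between the 2 comparisons, which share the KO diaphragm arrays, was not tested. Among the assembly factors, Sdhaf4 (0.46, adjusted p = 0.0184), Uqcc1 (0.40, adjusted p = 0.0221) and Atpaf1 (0.51, adjusted p = 0.00546) were higher in KO diaphragm.

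Between the WT-labelled diaphragm arrays and WT gastrocnemius, 0 of the 43 genes were called by limma in either direction, where 0.296% of all genes were called higher and 0.166% lower. Before adjustment, with a threshold of 0.05, 4 of the 43 genes were higher by limma (8.48% of all genes) and 2 lower (4.45%). The median of the 43 genes was 0.056, and it ranged with 1 array left out from 0.022 (without WT diaphragm replicate 1) to 0.15 (without WT diaphragm replicate 2). The smallest adjusted p was 0.144 for Sdhc. Uqcc2 and Atp5g3 had the lowest and the highest difference between the KO muscles. Here Uqcc2 gave -0.15 with a 95% interval of -0.44 to 0.15 and Atp5g3 0.14 with an interval of -0.066 to 0.35. Both intervals leave out the size of the muscle difference within KO. That did not hold for all genes called between the KO muscles. Sdhc gave 0.35 with an interval of 0.14 to 0.56, which includes its 0.49 within KO. Uqcc1 gave 0.36, against 0.40 within KO, and Atp5g2 gave -0.25, against -0.29. The genes of each kind were not counted.

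**Figure D5:**
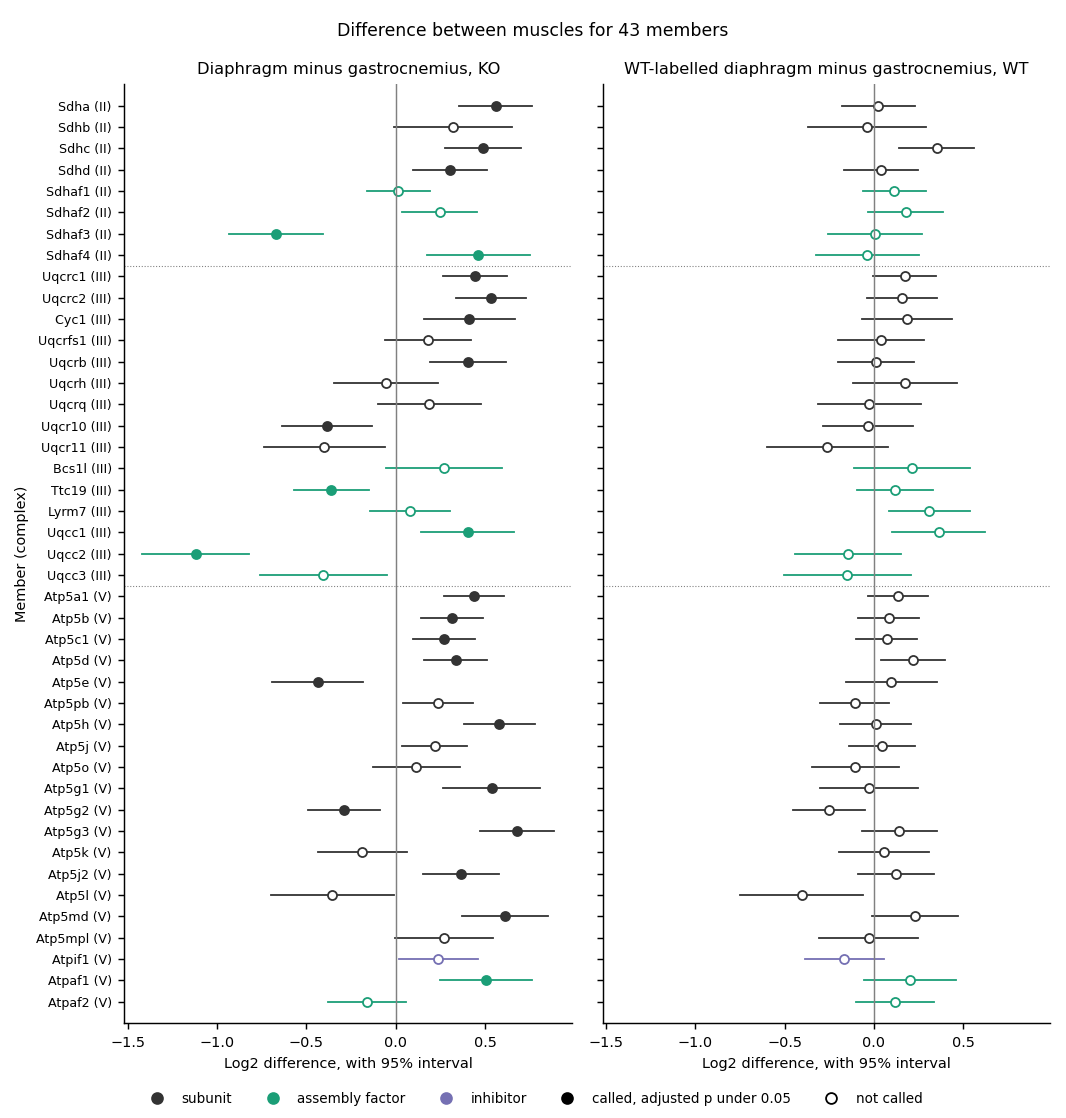
Log2 difference between muscles for each of the 43 genes, as diaphragm minus gastrocnemius within KO mice (left) and as the WT-labelled diaphragm arrays minus WT gastrocnemius (right), with the 95% interval as a line; filled points are called at an adjusted p under 0.05. On the left 19 filled points lie above 0 and 6 below, and on the right no point is filled.

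Other cell and fiber types moved with the same comparisons. In KO diaphragm against the WT-labelled diaphragm arrays, 10 of 10 genes of oxidative fibers and 8 of 8 mesothelial genes were called higher and 8 of 9 genes of glycolytic fibers lower. The mean signal per array was 11.56 to 11.74 against 9.87 to 10.55 for the oxidative list, 7.54 to 8.36 against 4.91 to 5.04 for the mesothelial list and 11.10 to 11.35 against 13.10 to 13.18 for the glycolytic list, KO diaphragm first in each pair. Macrophage (9 of 10), endothelial (5 of 6) and white adipocyte (5 of 6) genes were called higher as well, while Ucp1 of brown adipocytes was not. Between KO diaphragm and KO gastrocnemius the called genes were 9 of 10 oxidative, 8 of 8 mesothelial, 10 of 10 macrophage, 6 of 6 endothelial and 5 of 6 white adipocyte genes, all higher, and 8 of 9 glycolytic genes, all lower. In gastrocnemius, KO against WT, none of these lists had a called gene. All 6 white adipocyte genes (median -0.47), all 10 macrophage genes (median -0.31) and all 8 mesothelial genes (median -0.13) had negative values there. The arrays did not overlap for the white adipocyte list (6.51 to 6.86 in KO and 6.95 to 7.59 in WT), the macrophage list (6.73 to 6.94 in KO and 7.0 to 7.37 in WT) and the mesothelial list (4.91 to 4.92 in KO and 5.01 to 5.18 in WT). The mesothelial list was about as low in gastrocnemius as on the WT-labelled diaphragm arrays. Its smallest unadjusted p by limma in gastrocnemius was 0.086. The oxidative list overlapped (10.23 to 10.71 in KO and 9.99 to 10.76 in WT), and the glycolytic list lay at 13.19 to 13.21 in KO and 13.18 to 13.22 in WT. The part of these cells and fibers in the values of the 43 genes was not tested.

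The remaining nuclear genes of the chain were measured on the same arrays. Of 36 complex I subunits, 23 were called higher and 0 lower in the diaphragm comparison (median 0.39) and 0 in gastrocnemius (median 0.19). Of 12 complex IV subunits other than Cox6a2, 11 were called higher and 0 lower in the diaphragm comparison (median 0.53) and 0 in gastrocnemius (median 0.19). Between KO diaphragm and KO gastrocnemius, 12 of the complex I subunits were higher and 2 lower (median 0.19), and 6 of the complex IV subunits were higher and 0 lower (median 0.37). The gastrocnemius medians of complexes I and IV were thus next to that of the subunits of complexes II, III and V (0.19). Cytochrome c and the 3 carriers of ADP, ATP and phosphate gave a median of 0.44 in the diaphragm comparison, with 3 of 4 called, and 0.10 in gastrocnemius.

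The promoters of these genes are known for sites of nuclear respiratory factor 1 (NRF1), of ETS factors such as GABP, of estrogen-related receptors (ERR) and of YY1. RefSeq sequence (GRCm38.p6) of 300 bases, from 250 before to 50 after the start, was matched for 36 of the 43 genes, and was searched on both strands for GCGCA, any base and GCGC in a row (NRF1), CCGGAAG (ETS), AAGGTCA (ERR, also part of sites of other nuclear receptors) and AANATGGCG (YY1), none of which holds another. The NRF1 letters were found in 13 of the 36 genes (36.1%), against 5.19% of all 27025 genes with a promoter and 7.17% of the protein-coding ones. The ETS letters were found in 14 (38.9%, against 9.93% of all genes), the ERR letters in 7 (19.4%, against 5.38%) and the YY1 letters in 6 (16.7%, against 2.76%). Of the protein-coding genes, 12.9% held the ETS letters, 4.73% the ERR letters and 3.64% the YY1 letters. Among subunits, 9 of 23 held the NRF1 letters and 10 the ETS letters, and among assembly factors 3 of 12 and 4. A match is a run of letters and was not tested as a bound site.

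The sequences of 6 promoters are shown, chosen by the values of their genes. First come the 3 c subunit genes, which share a mature protein, then Sdha, the subunit with the called interaction in complex II. Last are Uqcc2 and Atp5e, which had negative values in the diaphragm comparison. The 6 promoters lie at chr11:96075582-96075881, chr15:102670998-102671297, chr2:73911277-73911576, chr13:74350191-74350490, chr17:27133842-27134141 and chr2:174464052-174464351, all on the minus strand. They are written 5′ to 3′ in the direction of the gene with matches to any of the 4 motifs in capitals.
Atp5g1: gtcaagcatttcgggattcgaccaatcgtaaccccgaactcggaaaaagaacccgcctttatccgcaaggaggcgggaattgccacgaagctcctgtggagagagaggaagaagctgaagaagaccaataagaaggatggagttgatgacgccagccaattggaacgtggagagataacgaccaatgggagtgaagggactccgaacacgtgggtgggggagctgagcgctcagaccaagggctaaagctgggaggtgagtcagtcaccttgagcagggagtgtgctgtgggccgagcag
Atp5g2: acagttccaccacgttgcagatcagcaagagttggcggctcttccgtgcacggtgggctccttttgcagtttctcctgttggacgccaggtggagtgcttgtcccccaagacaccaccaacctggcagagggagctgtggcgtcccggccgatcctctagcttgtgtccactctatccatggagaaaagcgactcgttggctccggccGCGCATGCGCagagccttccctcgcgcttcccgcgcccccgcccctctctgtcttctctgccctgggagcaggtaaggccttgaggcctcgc
Atp5g3: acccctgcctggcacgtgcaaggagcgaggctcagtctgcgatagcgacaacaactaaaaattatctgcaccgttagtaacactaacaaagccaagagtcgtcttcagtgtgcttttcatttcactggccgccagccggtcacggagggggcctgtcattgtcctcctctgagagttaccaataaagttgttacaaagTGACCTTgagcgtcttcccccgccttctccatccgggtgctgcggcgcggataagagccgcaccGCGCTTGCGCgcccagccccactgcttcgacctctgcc
Sdha: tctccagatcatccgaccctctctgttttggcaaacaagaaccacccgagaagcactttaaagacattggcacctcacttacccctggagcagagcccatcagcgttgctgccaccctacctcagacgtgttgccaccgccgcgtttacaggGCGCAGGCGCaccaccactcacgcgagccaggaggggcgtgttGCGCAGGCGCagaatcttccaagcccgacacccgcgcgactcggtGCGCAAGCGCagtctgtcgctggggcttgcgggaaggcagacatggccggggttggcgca
Uqcc2: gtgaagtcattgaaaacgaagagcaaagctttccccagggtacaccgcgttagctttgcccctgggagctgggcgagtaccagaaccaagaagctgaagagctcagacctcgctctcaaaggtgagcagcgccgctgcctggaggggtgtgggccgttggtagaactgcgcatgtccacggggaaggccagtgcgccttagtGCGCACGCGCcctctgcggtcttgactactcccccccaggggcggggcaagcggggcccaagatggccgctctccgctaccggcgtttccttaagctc
Atp5e: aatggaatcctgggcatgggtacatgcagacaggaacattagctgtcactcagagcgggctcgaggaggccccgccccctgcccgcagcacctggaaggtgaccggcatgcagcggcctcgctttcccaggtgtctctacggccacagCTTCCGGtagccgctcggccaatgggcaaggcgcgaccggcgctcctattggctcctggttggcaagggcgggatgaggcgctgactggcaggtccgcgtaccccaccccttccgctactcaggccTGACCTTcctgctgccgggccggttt
Atp5g1 held none of the 4 motifs, Atp5g2 held the NRF1 letters, and Atp5g3 those of NRF1 and ERR. Whether these letters have a part in the changes was not tested. Sdha held the NRF1 letters 3 times and Uqcc2 once. Atp5e held the letters of ETS and ERR.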

How the data were processed

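Male KO and WT mice gave 12 arrays. The authors summarised the scanner files with RMA in Affymetrix Expression Console (version not given in the sources used here), and the deposited values are the resulting log2 signals, background-corrected and normalized between arrays, of 35556 probe sets (1.65 to 14.4). RMA draws the distributions of the arrays together, so an even shift of all genes would not show. Of the probe sets, 21789 had 1 gene symbol in the platform annotation; 1621 with several and 12146 not listed there were left out. The brightest probe set by mean over all arrays stood for each of 19938 genes (11 of the 43 members had several). These were fitted in R 4.3.3 with limma 3.58.1 (lmFit, contrasts.fit, eBayes) with a mean per group (8 residual and 6.18 prior degrees of freedom), with Benjamini-Hochberg adjustment over all genes and a threshold of 0.05. Arrays hold no read depth, and their number limits the precision; the median residual SD was 0.138. The scripts were tested on simulated data with known changes placed in KO diaphragm. At a log2 change of 1 the fit recovered 100 of 100 genes and at 0.5 it recovered 51 of 100, with 9 false calls. Fewer genes changed there than were called in the diaphragm comparison of the real data. An exact permutation test of 3 arrays against 3 cannot go below p = 0.1 and was not used. Named with the value of every array were the highest and lowest member of each complex in each comparison of genotypes, the members with a called interaction, the c subunit genes, Atpif1 and each assembly factor called in a comparison. The members, lists and tests were chosen with earlier results of these data known. The alternatives were other moderation (with statmod 1.5.0), scaling, filtering, probe set choice, a replicate block, each muscle alone, fits without single arrays or without the arrays labelled WT diaphragm, and the t-test that the study's methods name; each further probe set on its own was added after seeing the data.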

Additional observations from a re-analysis of the deposited data

Results flagged for a closer look

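For 8 of the 43 genes the difference between KO and WT itself differed between the diaphragm comparison and gastrocnemius, by the interaction term of the limma fit at an adjusted p under 0.05. Of all genes, 8.76% were called higher and 6.07% lower by this term. The share of the 43 genes, with 4 higher and 4 lower, was thus near the background in both directions. The interaction was positive for Sdha (0.54), Atp5h (0.57), Atp5g1 (0.56) and Atp5g3 (0.54), and negative for Sdhaf3 (-0.68), Ttc19 (-0.48), Uqcc2 (-0.97) and Atp5e (-0.53). All 8 values use the arrays labelled WT diaphragm, whose position, mesothelial and fiber genes were those of gastrocnemius. The size of the difference between KO diaphragm and KO gastrocnemius does not use them. It was 0.56, 0.58, 0.54 and 0.68 for the first 4 genes and -0.67, -0.36, -1.12 and -0.44 for the other 4, in the order given, and it shares the KO arrays with the interaction. Dixon's outlier test was not applied, since each group held 3 arrays.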

How the results depend on the processing

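No single member that was called changed direction under any of the alternatives that use its brightest probe set or the mean of its probe sets, and of 4424 such values 159 lost a call and 59 gained one. Shares of all genes are given for the reported fit only, so counts under the alternatives stand without a background. The dimmer probe set of Sdhaf4 had the opposite sign in the diaphragm comparison (-0.35), in gastrocnemius (-0.19), for the interaction (-0.16) and between the KO muscles (-0.096); the cause was not tested.

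In the diaphragm comparison, members called lower numbered 1 as reported, 2 with the replicate block as a fixed effect, with trend and robust moderation or with genes at or above the median signal, and 4 with median centring or quantile normalization. The methods' t-test called 7 higher and 0 lower after Benjamini-Hochberg adjustment, where limma called 28 and 1. Leaving out 1 array gave 20 to 28 higher, the fewest without WT diaphragm replicate 2, and 1 to 2 lower. Among single members the calls of Atp5j, Atp5j2, Sdhaf2, Sdhc and Uqcrfs1 were lost most often (in 14, 8, 7, 7 and 6 of 21 settings), each without KO diaphragm replicate 1 and without KO diaphragm replicate 3, and all but that of Sdhc without WT diaphragm replicate 2. The subunit median minus the assembly factor median was 0.31, and 0.39 with genes at or above the median signal.

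In gastrocnemius, members called higher numbered 0 as reported, 1 (Atp5k) with trend and robust moderation or with genes at or above the median signal, 2 (Atp5k and Uqcr10) with median centring, 1 (Uqcr10) without the 3 arrays labelled WT diaphragm, and 0 to 2 when 1 array was left out, the 2 without WT diaphragm replicate 2.

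For the interaction, members called higher numbered 4 as reported, 7 with trend and robust moderation, 8 with genes at or above the median signal and 1 with median centring, and 3 to 6 higher and 2 to 5 lower without 1 array. The members' median was 0.20, but 0.068 with median centring and 0.066 to 0.23 without 1 array, lowest without WT diaphragm replicate 2. The difference of the class medians was 0.39, 0.33 with genes at or above the median signal and 0.30 to 0.43 without 1 array. The calls of Uqcc2, Sdhaf3 and Atp5h held in all 19 settings, those of Sdha and Atp5g3 in 18 (lost with median centring), and those of Ttc19, Atp5e and Atp5g1 in 10, 8 and 6.

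Between the KO muscles, members called higher numbered 19 as reported, 10 with median centring (members' median 0.14 instead of 0.27) and 14 to 21 without 1 array. Members called lower numbered 6, 3 by the methods' t-test (which called 16 higher) and 2 to 9 without 1 array, fewest without KO diaphragm replicate 2. Among single members the calls of Sdhd, Sdhaf4, Uqcc1, Atp5g2 and Uqcr10 were lost most often (in 7, 6, 6, 5 and 5 of 21 settings). The difference of the class medians ranged from 0.21 to 0.33 without 1 array. Between the arrays labelled WT diaphragm and WT gastrocnemius it was -0.074, and -0.10 to -0.0077 without 1 array, where the members' median was 0.056, and 0.022 to 0.15 without 1 array.

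Arrays with the same number did not pair: their deviations correlated at -0.096 to 0.16 over 18 pairs of arrays, above 0.1 in 2. With the replicate block as a fixed effect the calls were 27 higher and 2 lower in the diaphragm comparison, 0 in gastrocnemius and 4 higher and 3 lower for the interaction; as a random effect (consensus correlation -0.034) they were 28 and 1, 0, and 3 and 3. With 3 arrays a group the 95% interval of a single gene in gastrocnemius was as wide as -0.12 to 0.59 for Uqcc3, and a small change cannot be told from none there.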

Other observations

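Within the complexes the parts differed in the size of their change in gastrocnemius, described here without a test. In complex III the 5 small subunits (Uqcrb, Uqcrh, Uqcrq, Uqcr10 and Uqcr11) had a median difference between KO and WT of 0.43, the 2 electron carriers 0.29 and the 2 core proteins 0.10. In the diaphragm comparison the same medians were 0.29, 0.48 and 0.43, so that by the median the small subunits stood first in gastrocnemius and last there. The small subunits were split, however. Uqcrh, Uqcr10 and Uqcr11 had the larger value in gastrocnemius. Uqcrb (0.068 in gastrocnemius and 0.46 in the diaphragm comparison) and Uqcrq (0.23 and 0.44) had the smaller value there. In ATP synthase the gastrocnemius medians were 0.089 for the 5 genes of the F1 head, 0.13 for the 4 of the peripheral stalk, 0.14 for the 3 of the c ring and 0.20 for the 5 other membrane subunits. In the diaphragm comparison they were 0.32, 0.48, 0.70 and 0.30. The grouping into parts was made with earlier results of these data known. An unadjusted p under 0.05 in gastrocnemius was reached by 3 of the 5 small subunits, 2 of the 2 electron carriers and 0 of the 2 core proteins of complex III, and by 1 gene in each of the 4 parts of ATP synthase.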
